A study of Mus musculus with 20 samples.

Results

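The muscle regeneration and denervation genes are Pax7, Myf5, Myod1, Myog, Myf6, Cdh15, Chrna1, Chrng, Ncam1, and Runx1. They were chosen by name as genes that mark satellite cells, myoblasts, and muscle fibers that have lost their nerve, and they make up 10 of the 34797 gene names on the array. Of the 10 genes, 9 had a probe that entered the tests, and Myf5 did not.

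The mice were female C57Bl/6 animals aged 8 weeks when they received a single injection of 100 μL into the pleural cavity, and the diaphragm was taken 12 weeks later. The control group received 0.5% BSA in saline, the vehicle of all groups. SFA and LFA are short and long amosite asbestos fibers at 25 μg per mouse, and NTS and NTL are short and long carbon nanotubes at 5 μg per mouse, which the study also calls SNT and LNT. Each of the 5 groups held 4 mice, and RNA came from a frozen part of the whole diaphragm, so muscle, pleura, and any lesion were measured together. Since mass doses differ between asbestos and nanotubes, values of LFA and NTL are given side by side as measured. In a whole-tissue sample, fewer cells of a type, less RNA per cell, and more RNA from other cells cannot be told apart.

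Skeletal muscle is repaired by satellite cells, stem cells that lie between the fiber and its basal lamina and carry the transcription factor Pax7. When they are activated, Myf5 and Myod1 commit them to the myoblast fate, Myog starts their differentiation, and Myf6 is kept on in mature fibers. Cdh15, or M-cadherin, is an adhesion protein of satellite cells and myoblasts. A fiber under its nerve keeps acetylcholine receptors at the junction, whereas a denervated fiber makes receptor subunits along its length, among them Chrna1 and the fetal subunit Chrng, and it turns on the adhesion protein Ncam1 and the transcription factor Runx1. Ncam1 is also made by nerve and Schwann cells, and Runx1 is a regulator of blood cell development and is made by leukocytes, so neither is specific to muscle.

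Several of these genes are known to be controlled by myogenic factors that bind the E-box, CANNTG, a motif that reads the same on both strands. The 250 bases before the transcript start are shown for genes that the results turn on, Cdh15 and Runx1, and for both receptor subunits. Sequences are from RefSeq, build GRCm38.p6, read 5′ to 3′ on the strand of the gene, and the capitals mark each CANNTG. They are at chr8:122848124-122848373 (plus) for Cdh15, chr2:73580339-73580588 (minus) for Chrna1, chr1:87205561-87205810 (plus) for Chrng, and chr16:92826075-92826324 (minus) for the upstream start of Runx1.
Cdh15: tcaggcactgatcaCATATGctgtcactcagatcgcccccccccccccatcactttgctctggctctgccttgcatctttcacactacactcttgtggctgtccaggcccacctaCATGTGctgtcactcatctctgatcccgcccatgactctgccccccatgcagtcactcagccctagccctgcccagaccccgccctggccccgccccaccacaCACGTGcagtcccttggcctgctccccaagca
Chrna1: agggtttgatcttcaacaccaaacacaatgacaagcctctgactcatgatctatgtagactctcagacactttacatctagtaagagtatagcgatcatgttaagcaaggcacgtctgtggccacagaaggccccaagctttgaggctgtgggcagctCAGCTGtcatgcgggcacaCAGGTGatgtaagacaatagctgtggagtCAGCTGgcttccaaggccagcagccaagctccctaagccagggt
Chrng: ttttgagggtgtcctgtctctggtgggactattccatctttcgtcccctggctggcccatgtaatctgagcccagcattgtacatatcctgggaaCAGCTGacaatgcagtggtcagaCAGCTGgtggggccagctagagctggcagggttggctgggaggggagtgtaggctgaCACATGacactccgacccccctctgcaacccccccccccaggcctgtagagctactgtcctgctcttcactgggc
Runx1: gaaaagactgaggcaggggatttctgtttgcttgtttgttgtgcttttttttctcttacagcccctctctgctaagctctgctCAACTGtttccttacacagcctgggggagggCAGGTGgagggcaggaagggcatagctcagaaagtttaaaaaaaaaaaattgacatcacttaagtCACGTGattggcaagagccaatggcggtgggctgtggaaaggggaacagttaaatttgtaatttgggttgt

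Each of these windows holds 3 E-boxes. Among all 32851 RefSeq windows of that length, 66.2% hold at least 1 CANNTG and 31.8% hold 2 or more. Of the 8 windows found for 7 of the members, 5 hold at least 1, close to the share of all windows. The motif starts 236, 135, and 32 bases before the start of Cdh15, and 92, 73, and 44 bases before that of Chrna1. In Chrna1 and in Chrng 2 of the 3 E-boxes read CAGCTG. Of all windows, 13% hold at least 1 CAGCTG and 1.26% hold 2 or more. Myog holds 2 E-boxes, and the windows of Pax7, Myf5, and the second start of Runx1 hold 0. The letters TGTGGT, a core of the Runx motif, occur on either strand in the windows of Cdh15 and Myf5 and in 14.0% of all windows. No window was matched for Myod1, Myf6, and Ncam1.

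Probes differ within a gene, and for Ncam1 that decides the result, so the first 30 of the 60 bases are given for its 3 probes, for both Runx1 probes, and for Cdh15. Positions are those of the files, build NCBI37, which do not say whether a probe lies in coding sequence. In the order printed, the Ncam1 probes start at 49310320, 49323381, and 49351182 on chromosome 9, and the Runx1 probes start at 92605785 and 92604413 on chromosome 16. The Cdh15 probe is at chr8:125391031-125391090. The file assigns the first Ncam1 probe to transcript variant 3 and the other two to variant 2. All these probes are on the minus strand except that of Cdh15.
Ncam1, the first probe: actttttactgagtgaaacatcaacaccac
Ncam1, the second probe: ctgtgtattagtacagtccgtacaccatgt
Ncam1, the third probe: tggaaggcattgtcaccatcatgggcctga
Runx1, first probe: caggagggcccttggaggccaccaggaaga
Runx1, second probe: tgtgcatcgtgtcactgtaaatgtaatggt
Cdh15: ggcccatccttggctccatggcagataaac

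Signals below are the log2 intensity of a probe minus the 75th percentile of its array, so 0 is the level of a probe brighter than 75% of the others and each unit is a 2-fold step. The 75th percentile ran from 294 to 996 intensity units over the 20 arrays, 53 to 68.1% of spots per array were well above background, and arrays correlated at 0.909 to 0.984. On 1 array of each group, probes near the 5′ end of a transcript were dimmer than those near its 3′ end by more than on the others. The mean 5′ minus 3′ difference over 1822 transcripts was -1.44 for control replicate 2, -1.51 for SFA replicate 1, -1.47 for LFA replicate 3, -1.32 for NTS replicate 4, and -1.42 for NTL replicate 2, and it lay between -1.19 and -0.62 on the other 15. A mean of 16 skeletal myofiber genes lay at 7.43 to 7.78 in control, 7.04 to 7.45 in SFA, and 6.30 to 6.81 in LFA. It lay at 6.71 to 8.08 in NTS and 6.19 to 6.40 in NTL, so muscle genes were bright on every array. Genes of liver, which the label does not name, varied widely between arrays of one group, with means of -1.47 to 4.52 in control, -2.90 to 7.24 in SFA, -1.82 to 7.81 in LFA, -1.65 to 8.74 in NTS, and 0.25 to 4.64 in NTL. The liver mean was above the myofiber mean on SFA replicate 2, LFA replicates 1 and 3, and NTS replicates 3 and 4. On NTS replicate 4, for example, it was 8.69 against 6.71, so these samples were not muscle alone. The median change of the 10 liver genes against control was 2.42 in SFA, 2.49 in LFA, 3.51 in NTS, and 2.52 in NTL, and 0 of them were called.

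A gene was called when limma's moderated test gave a Benjamini-Hochberg adjusted p under 0.05 over all 36917 probes tested and the change was at least 2-fold. With its brightest probe standing for each gene, 1 of 9 genes was called between LFA and control, Cdh15, where 3.94% of all probes were called. Between NTL and control 2 of 9 were called, Ncam1 and Runx1, where 6.81% of all probes were called. Between NTL and NTS the same 2 genes were called, with 7.6% of all probes. No member was called for SFA against control, NTS against control, or LFA against SFA, where 0, 0, and 1.16% of probes were called.

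The members and the rest of the array can also be set side by side by whether groups overlap. Every array of LFA lay apart from every control array for 4 of 9 genes, against 16.2% of all probes, and NTL and control lay apart for 4 of 9, against 20.2%. LFA and SFA did not overlap for 4 of 9 genes, against 8.97% of probes, and NTL and NTS for 2 of 9, against 16%. SFA and control, and NTS and control, overlapped for every member, and 1.44% and 1.49% of all probes did not overlap there. The median change of the 9 genes from control was -0.79 in LFA against -0.28 over all probes, and -0.46 in NTL against -0.25. These medians mix directions, with 7 genes lower and 2 higher in LFA, and 6 lower and 3 higher in NTL. From SFA to LFA the median was -0.70 against -0.17 over all probes. From NTS to NTL it was -0.19, not below the -0.26 of all probes. The comparisons with control share the same 4 control arrays.

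**Figure D1:**
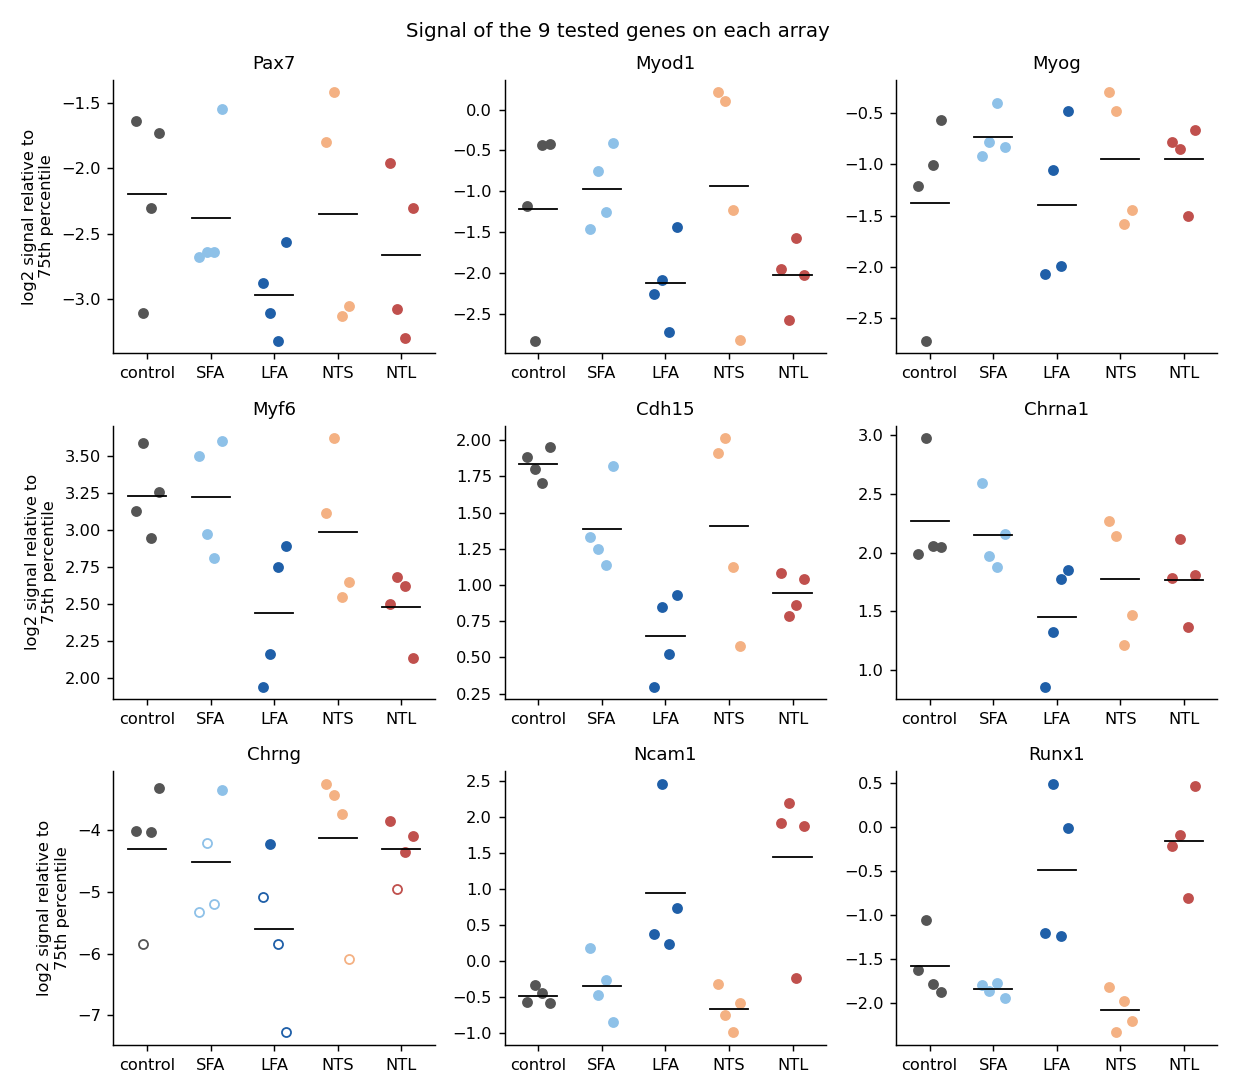
Log2 signal of the brightest probe of each tested gene, relative to the 75th percentile of the array, for each of the 20 arrays by group. Points are arrays, open where the spot was not well above background, and bars are group means. All LFA and NTL points of Cdh15 lie below the control points, and all NTL points of Ncam1 and Runx1 lie above them.

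Cdh15 was called lower in LFA, and its signals were also below control in NTL. Its signals in control were 1.88, 1.80, 1.71, and 1.95, a mean of 1.83 ± 0.11 (SD, n = 4). In LFA they were 0.30, 0.85, 0.52, and 0.93, and in NTL 1.08, 0.78, 0.86, and 1.04. No array of either long-fiber group reached the lowest control array. The change in LFA was -1.19 ± 0.28 (log2, SE), which is 2.27-fold lower, with an adjusted p of 0.0253 in limma. In NTL it was -0.89 ± 0.28, or 1.86-fold lower, with an adjusted p of 0.0573, short of both thresholds.

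The short-fiber groups lay between, with a wider spread. In SFA the Cdh15 signals were 1.33, 1.25, 1.14, and 1.82, and in NTS they were 1.91, 2.01, 1.13, and 0.58. The NTS group divided into a pair of arrays within or above the control range and a pair below it. Ordered by mean, control at 1.83 was followed by NTS at 1.41, SFA at 1.38, NTL at 0.94, and LFA at 0.65, and the neighbors overlapped except SFA and NTL, where every NTL array was below every SFA array. LFA was below SFA by 0.73 ± 0.28, with no overlap and an adjusted p of 0.283, and the change from NTS to NTL was -0.47 ± 0.28 with an adjusted p of 0.313.

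Within slides, the 3 glass supports that each held arrays of several groups, LFA minus control was -1.22, -1.54, and -0.86 for Cdh15. NTL minus control was -0.76 and -0.81 on the 2 slides that held both. With slide as a block the LFA change was -1.11 and its adjusted p 0.0519. Relative to the median of each array in place of its 75th percentile it was -0.86, under 2-fold, with an adjusted p of 0.139. The median change over all probes was then 0.05, against -0.28. The call was also lost without control replicate 1 (adjusted p 0.0603), control replicate 4 (0.0600), LFA replicate 1 (0.0716), or LFA replicate 2 (0.0560).

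Signals of myofiber genes moved with Cdh15, and fewer fibers, less RNA per fiber, and more RNA from other cells cannot be told apart here. All 16 myofiber genes were lower in LFA and in NTL than in control, 3 and 5 of them called, with median changes of -1.02 and -1.24. In LFA the called genes were Acta1, the skeletal muscle actin, at -1.01, Myh7, the slow myosin heavy chain, at -1.11, and Ryr1, the calcium release channel, at -1.28. The 2 NTS arrays with the lowest Cdh15 were also those with the lowest myofiber mean of their group. With that mean as a covariate the Cdh15 change in LFA was -0.24, and in NTL 0.31, and the number of probes called, 1455 for LFA and 2514 for NTL, was then 8 and 6. The liver genes were higher where Cdh15 was lower within NTS and within LFA. Their means were 8.74 and 8.69 on the 2 NTS arrays of lowest Cdh15 against -0.01 and -1.65 on the others, and 7.24 and 7.81 on LFA replicates 1 and 3, lowest for Cdh15, against -1.82 and -1.63 on replicates 2 and 4. With the liver mean as a covariate the Cdh15 change in LFA was -1.03 and was called, with an adjusted p of 0.0172. The 3 genes whose signals followed Cdh15 most closely over the 20 arrays were Actn2, a sarcomere protein of the Z-disc, at a Pearson r of 0.961, Klhl30 at 0.949, and Extl1 at 0.949. These r describe points that share arrays and their quality.

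**Figure D2:**
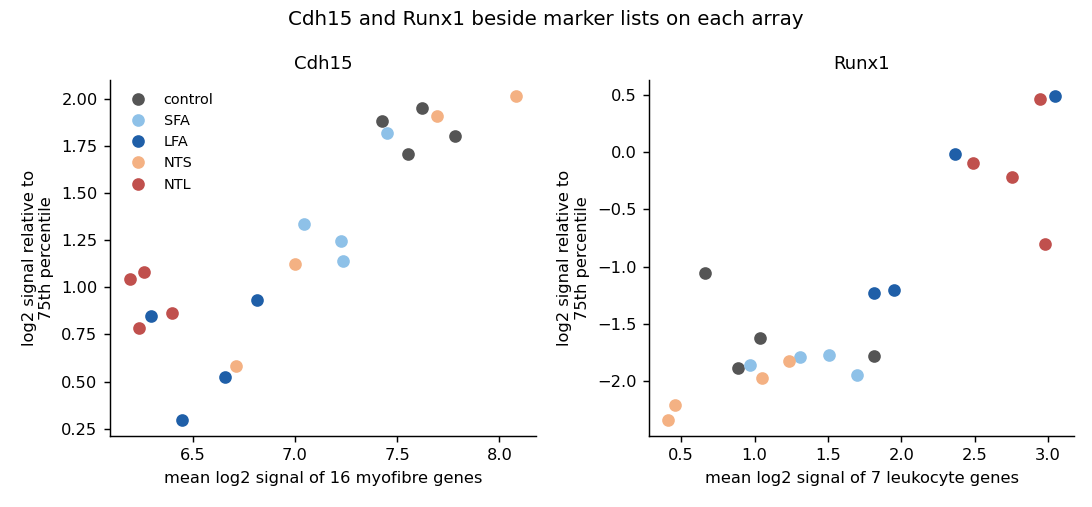
Log2 signal of Cdh15 against the mean of 16 myofiber genes (left) and of Runx1 against the mean of 7 leukocyte genes (right), both relative to the 75th percentile. Each point is an array, colored by group. LFA and NTL arrays have low Cdh15 with low myofiber means, and arrays with high leukocyte means, NTL and part of LFA, have high Runx1.

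Among the myogenic regulators, Myf6 was the 1 whose long-fiber arrays lay apart from control. Myf6, the regulator kept on in mature fibers, gave 3.13, 3.59, 2.95, and 3.26 in control. Its signals were 1.94, 2.17, 2.75, and 2.89 in LFA and 2.50, 2.68, 2.62, and 2.13 in NTL. All 8 long-fiber arrays were below all 4 control arrays, although the highest LFA array, at 2.89, came close to the lowest control array. The changes were -0.79 ± 0.29 in LFA and -0.75 ± 0.29 in NTL, under 2-fold, with adjusted p of 0.113 and 0.121 in limma. Relative to array medians in place of the 75th percentile they were -0.47 and -0.58, with adjusted p of 0.561 and 0.484 in limma. With the myofiber mean as a covariate they were 0.11 and 0.41. Signals most like those of Myf6 were those of Cyb5r1 (r = 0.952), Mkrn2 (0.949), and Ppp2r2a (0.938).

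Pax7, the satellite cell factor, had signals of -1.64, -3.11, -2.31, and -1.73 in control and -2.88, -3.11, -3.32, and -2.57 in LFA. In NTL it had -1.96, -3.07, -3.30, and -2.30. Control replicate 2 was as low as the lower LFA arrays, and the groups overlapped. The changes were -0.77 ± 0.44 in LFA and -0.46 ± 0.44 in NTL, with adjusted p of 0.287 and 0.571, and neither was called. The 95% interval in LFA, -1.69 to 0.15, leaves room for a fall of more than 2-fold and for no change.

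Myod1, which commits cells to the myoblast fate, is printed 10 times on each array, and its 10 spots varied by a median of 6.1% within an array. In control the signals were -1.18, -2.83, -0.44, and -0.42, in LFA -2.26, -2.08, -2.72, and -1.44, and in NTL -1.95, -2.57, -1.57, and -2.02. A single control array, replicate 2, was below every LFA and NTL array, and the other 3 were above them all. The changes were -0.91 ± 0.59 and -0.81 ± 0.59, with adjusted p of 0.359 and 0.445. In 5 of 5 groups the array with the lowest Myod1 signal was the one with the lowest 5′ to 3′ index. Without those 5 arrays, an alternative chosen after the data were seen, the changes were -1.25 in LFA and -1.16 in NTL, with adjusted p of 0.0719 and 0.096.

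Myog, which starts differentiation, did not move in one direction. Its 10 spots per array varied by a median of 4.88%. Control arrays gave -1.21, -2.72, -1.01, and -0.57, LFA -2.07, -1.06, -1.99, and -0.48, and NTL -0.79, -0.85, -1.50, and -0.67. The control range covered all LFA and NTL arrays except LFA replicate 4. The change in LFA was -0.02 ± 0.44 with a 95% interval of -0.95 to 0.91, and in NTL 0.43 ± 0.44 with an interval of -0.50 to 1.35. Its signals in SFA, at -0.92, -0.79, -0.41, and -0.83, were the least spread of the 5 groups, with a change of 0.64 ± 0.44 against control.

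Myf5, the earliest commitment factor, was not well above background on any of the 20 arrays, although it is printed at 10 spots on each. No fold is given for it.

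Of the receptor subunits, Chrna1, the subunit that binds acetylcholine in fetal and adult receptors, was lower on every LFA array than on any control array on 1 of its 2 probes, without passing the test. The brighter of its 2 probes gave 1.99, 2.97, 2.06, and 2.05 in control, 0.86, 1.32, 1.78, and 1.85 in LFA, and 1.78, 2.11, 1.37, and 1.81 in NTL. All LFA arrays lay below all control arrays and all SFA arrays, whereas NTL overlapped control. The change was -0.81 ± 0.31 in LFA, or 1.76-fold lower, with an adjusted p of 0.127, and -0.50 ± 0.31 in NTL with an adjusted p of 0.354. The second probe gave -0.62 ± 0.35 and -0.23 ± 0.35, and on it both LFA and NTL overlapped control. Neither probe was called, and control replicate 2, which stood above the other control arrays on both, has the lowest 5′ to 3′ index of its group. The array of lowest index was the highest of its group in 3 of 5 groups for the brighter probe and in 4 of 5 for the other. Without the arrays of lowest index the brighter probe changed by -0.69 in LFA, with an adjusted p of 0.169. Relative to array medians it changed by -0.49 in LFA, with an adjusted p of 0.565 in limma. Over the 20 arrays the gene most like Chrna1 was Colq, the collagen tail of junctional acetylcholinesterase, at r = 0.946, followed by Slco3a1 at 0.939 and Nxn at 0.92.

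Chrng, the fetal subunit that returns on denervation, was near the floor of the array. It was well above background on 3 of 4 control arrays, 1 of 4 in SFA, 1 of 4 in LFA, 3 of 4 in NTS, and 3 of 4 in NTL. The control signals were -4.02, -5.85, -4.04, and -3.32, the LFA signals -5.08, -4.23, -5.85, and -7.28, and the NTL signals -3.85, -4.96, -4.35, and -4.10. LFA held the lowest array of all, replicate 4, but overlapped control. The changes were -1.30 ± 0.70 in LFA and -0.01 ± 0.70 in NTL, with adjusted p of 0.265 and 0.996. No change of Chrng was called in any fiber group, and the 95% interval in NTL, -1.48 to 1.47, holds a change of 2-fold either way. The lowest Chrng array was the one with the lowest 5′ to 3′ index in 4 of 5 groups.

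**Figure D3:**
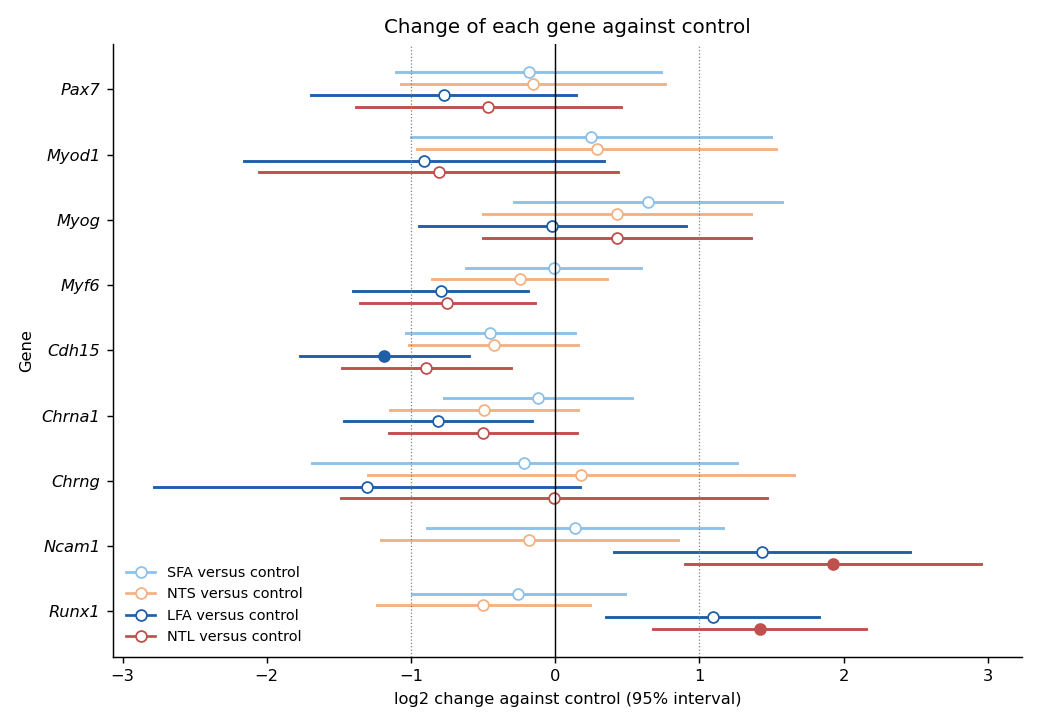
Change of each tested gene against control on the log2 scale, with its 95% interval, for the 4 fiber groups (brightest probe, 4 arrays per group). Filled points were called, dotted lines mark 2-fold. Cdh15 in LFA and Ncam1 and Runx1 in NTL are filled, and the intervals of SFA and NTS include 0 for all 9 genes.

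Runx1 was called higher in NTL on both of its probes. On the first probe control arrays gave -1.62, -1.05, -1.78, and -1.88, and NTL arrays gave -0.22, -0.09, -0.81, and 0.46. LFA arrays gave -1.20, 0.49, -1.23, and -0.02, SFA arrays -1.79, -1.86, -1.77, and -1.94, and NTS arrays -1.82, -2.33, -1.97, and -2.20. All NTL arrays were above all control and NTS arrays, and LFA was divided, with replicates 2 and 4 above every control array and replicates 1 and 3 inside the control range.

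The change in NTL was 1.42 ± 0.35, or 2.68-fold higher, with an adjusted p of 0.0195 in limma. Against NTS it was 1.92 ± 0.35, or 3.78-fold higher, with an adjusted p of 0.00225. In LFA it was 1.09 ± 0.35, or 2.13-fold higher than control, with an adjusted p of 0.0785. LFA exceeded SFA by 1.35 ± 0.35, with no overlap and an adjusted p of 0.0777. The second probe rose by 1.86 ± 0.46 in NTL against control (adjusted p 0.0196) and by 1.90 ± 0.46 against NTS (adjusted p 0.0154). In LFA the second probe was 1.24 ± 0.46 higher than control, with an adjusted p of 0.119.

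Ncam1 was called higher in NTL on 1 of its 3 probes, the first, which is the brightest. That probe gave -0.57, -0.33, -0.45, and -0.58 in control, 0.37, 2.47, 0.24, and 0.74 in LFA, and 1.93, 2.20, -0.23, and 1.89 in NTL. All 8 long-fiber arrays were above all control arrays, but NTL replicate 3 was only just above the highest of them. In SFA the signals were 0.18, -0.47, -0.25, and -0.84, and in NTS -0.32, -0.75, -0.99, and -0.58, both overlapping control.

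The first Ncam1 probe changed by 1.93 ± 0.49 in NTL, 3.8-fold higher, with an adjusted p of 0.022. Against NTS the rise was 2.10 ± 0.49, or 4.3-fold, with an adjusted p of 0.0118. In LFA the change was 1.44 ± 0.49, or 2.71-fold, with an adjusted p of 0.093. Without LFA replicate 2, the highest of its group, it was 0.93, under 2-fold, with an adjusted p of 0.206. Without NTL replicate 3 the change in NTL was 2.48 with an adjusted p of 0.00222, and without any 1 of the other 3 NTL arrays it was 1.68 to 1.78 with adjusted p of 0.0663 to 0.0739. Leaving out control replicate 1 or 4 gave adjusted p of 0.0504 and 0.0507. For the first Runx1 probe in NTL, the call was lost without control replicate 4 (adjusted p 0.0536) and without NTL replicate 4 (0.0774). In LFA that probe changed by 0.77 without LFA replicate 2 (adjusted p 0.180) and by 1.34, a call, without LFA replicate 3 (0.0469). The array of lowest 5′ to 3′ index was the highest of its group for the first Ncam1 probe in 3 of 5 groups.

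The other two Ncam1 probes were not called in any comparison. The second gave -0.64, -5.71, -1.13, and -1.65 in control, -1.95, -0.85, -7.10, and -4.37 in LFA, and -0.58, -7.13, -1.54, and -0.99 in NTL. The third gave -2.12, -4.60, -2.24, and -1.87 in control, -3.11, -1.45, -5.26, and -2.98 in LFA, and -1.22, -3.49, -3.20, and -1.40 in NTL. Their changes were -1.28 ± 1.84 and -0.49 ± 0.87 in LFA, and -0.27 ± 1.84 and 0.39 ± 0.87 in NTL, and their 95% intervals held a rise as large as that of the first probe, except for the third probe in LFA, where the upper bound was 1.33. On both, the lowest array of every group was the one with the lowest 5′ to 3′ index, 5 of 5 groups, and 15 and 17 of the 20 arrays were well above background. Averaging the 3 probes before the fit gave 0.68 in NTL with an adjusted p of 0.684 and -0.11 in LFA.

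**Figure D4:**
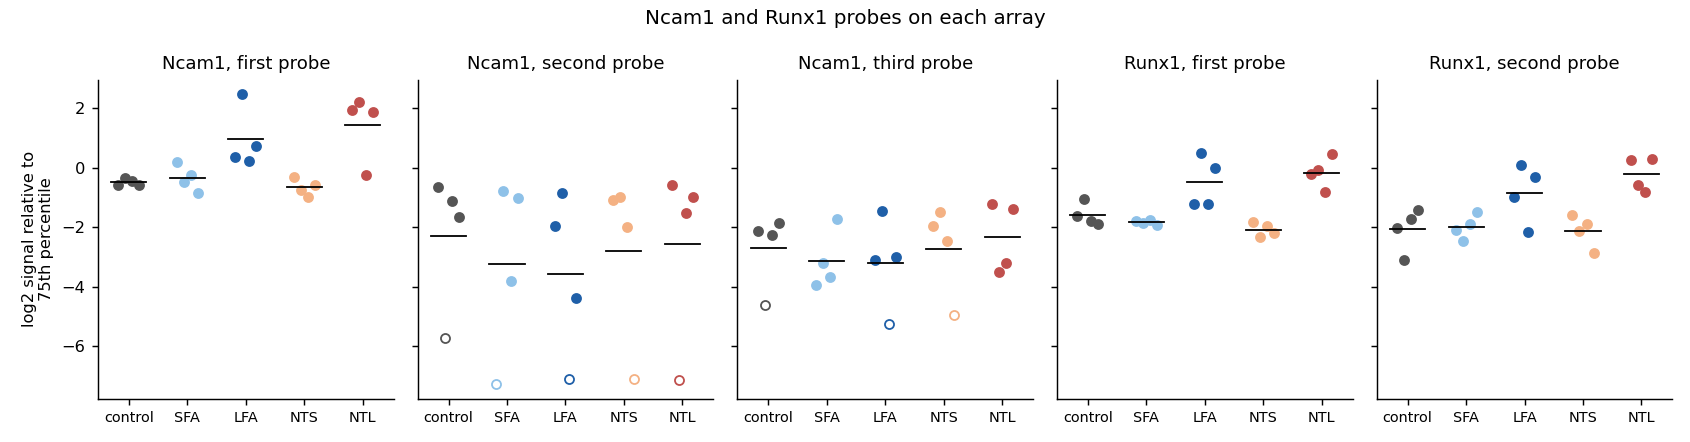
Log2 signal of the 3 Ncam1 and 2 Runx1 probes on each of the 20 arrays, relative to the 75th percentile. Points are arrays, open where not well above background, and bars are group means. Of the Ncam1 probes, the first lies above control on all LFA and NTL arrays, with NTL replicate 3 at -0.23, and both Runx1 probes lie above control on all NTL arrays.

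**Figure D5:**
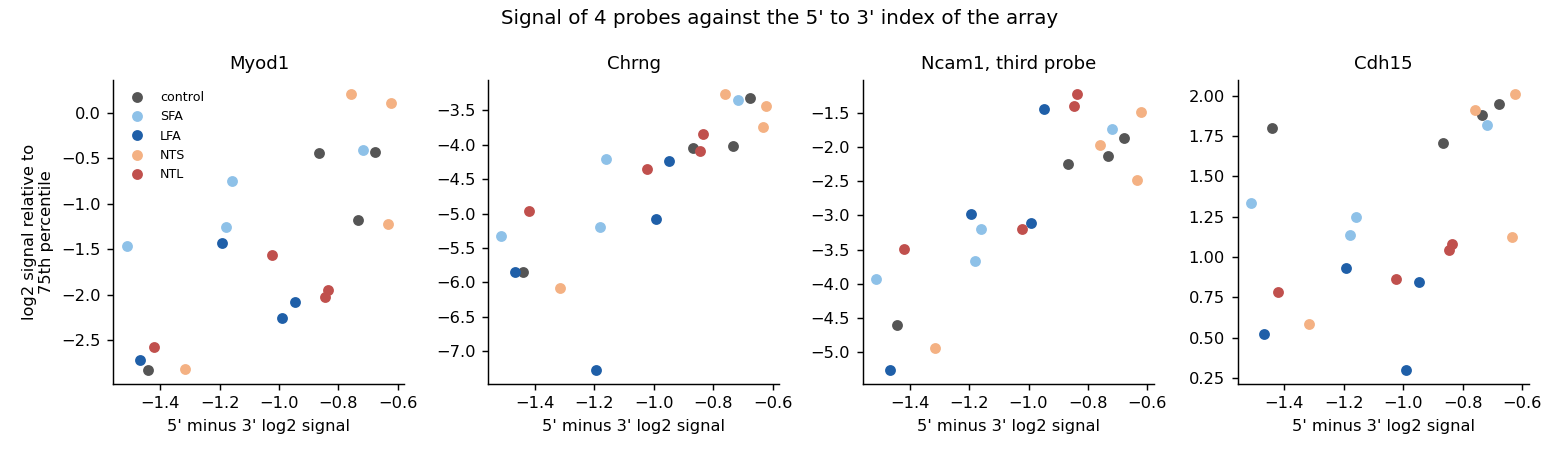
Log2 signal of Myod1, Chrng, the third Ncam1 probe, and Cdh15 against the mean 5′ minus 3′ log2 difference of the array. Each point is an array, colored by group. The array at the left end of each group has the lowest signal of Myod1 and of the third Ncam1 probe in all 5 groups.

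Within slides, NTL minus control was 1.12 and 1.64 for the first Runx1 probe and 2.38 and 1.73 for the first Ncam1 probe. LFA minus control was 1.25, 0.13, and 2.27 for Runx1 and 1.07, 0.82, and 2.91 for Ncam1. The size in LFA thus differed widely between slides, and 1 slide held arrays of both NTL and NTS, with differences of 1.85 and 2.46. NTL replicates 2, 3, and 4 were on slide 3, with control replicate 3 as its only control and no NTS array. All NTS arrays were on slides 1 and 2. Slide 3 was scanned on a different day from slides 1 and 2. Group, slide, and scan day therefore overlap for NTL and cannot be fully told apart. With slide as a block, the adjusted p in NTL against control was 0.0794 for Runx1 and 0.0792 for Ncam1, so neither call held, although the changes were 1.28 and 1.77. Against NTS the changes were then 1.68 for Runx1 (adjusted p 0.0560) and 1.81 for Ncam1 (0.138), and those calls were lost too.

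Leukocyte markers were higher in the groups where both genes were higher. All 7 leukocyte genes tested were higher in LFA and in NTL than in control, 2 and 4 of them called, with array means of 0.66 to 1.82 in control, 0.97 to 1.70 in SFA, 1.81 to 3.05 in LFA, 0.41 to 1.24 in NTS, and 2.49 to 2.98 in NTL. Of 10 macrophage genes 8 were called higher in LFA and in NTL, with array means of 1.33 to 1.64 in control, 2.83 to 3.74 in LFA, and 3.46 to 3.69 in NTL. The LFA replicates 2 and 4, high for Runx1, had the 2 highest leukocyte means of their group. They were also its highest arrays for the first Ncam1 probe, at 2.47 and 0.74. In NTL, replicate 3 had the highest leukocyte mean, 2.98, close to the 2.95 of replicate 4. Replicate 3 was the lowest NTL array for the first Ncam1 probe, at -0.23, and for both Runx1 probes, at -0.81 and -0.82. With the leukocyte mean as a covariate, an alternative chosen after the data were seen, the NTL change of Runx1 was 0.59 (adjusted p 0.581) and that of Ncam1 1.22 (adjusted p 0.447). Calls over all probes in NTL went from 2514 to 6 under that covariate, and in LFA from 1455 to 12.

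Fibroblast and matrix genes were higher in NTL as well. Of 8 genes, 1 was called higher in LFA and 5 in NTL against control, and 7 in NTL against NTS. Their array means were 4.37 to 4.68 in control, 4.52 to 5.35 in SFA, 4.79 to 5.95 in LFA, 3.79 to 4.40 in NTS, and 5.18 to 6.24 in NTL. NTL replicate 3, lowest for Ncam1, had the lowest of these means in its group, and LFA replicate 2, highest for Ncam1 and Runx1, had the highest of its group. The part of these cells in the Ncam1 and Runx1 values was not tested.

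Markers of nerve and of lymphocytes were also read. Of 9 Schwann cell and nerve genes, 1 was called higher in LFA, the neurotrophin receptor Ngfr at 1.19, and 1 lower in NTL, the myelin protein Prx at -1.04, and 7 of the 9 were below control in each group. Their array means were 0.03 to 0.37 in control, -0.01 to 0.24 in SFA, -0.36 to -0.15 in LFA, -0.58 to 0.28 in NTS, and -0.56 to -0.22 in NTL. Of 10 natural killer and T cell genes 0 were called in either group, and 8 of 10 were above control in LFA and 10 of 10 in NTL, with median changes of 0.67 and 0.86. In SFA 8 of 10 and in NTS 7 of 10 were above control, with median changes of 0.41 and 0.35. The array means of that list were -2.61 to -1.38 in control, -2.01 to -1.46 in SFA, -1.87 to -1.16 in LFA, -2.48 to -1.23 in NTS, and -1.69 to -0.82 in NTL. The part of these cells in the Ncam1 values was not tested.

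The genes most like Runx1 over the 20 arrays were Cpxm1 (r = 0.965), P2ry6, a nucleotide receptor (0.962), and Ltbp2, a matrix protein that binds fibrillin (0.958). Those most like the first Ncam1 probe were Ltbp2 (0.958), the chemokine Cx3cl1 (0.952), and the BMP regulator Bmper (0.945), so Ltbp2 was shared. Runx1 and Ncam1 themselves correlated at 0.907 over all arrays and at 0.742 after group means were removed. For Myod1 the highest r was with C230096C10Rik (0.957), Ctdnep1 (0.941), and Eya4 (0.941). Pax7 was most like Itgb6 (0.892), Hoxb3 (0.88), and Jmy (0.876), and Myog most like Itgb5 (0.849), Mllt3 (0.824), and Plcg1 (0.815).

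No member was called with short fibers. In SFA the changes of the 9 genes ran from -0.45 for Cdh15 to 0.64 for Myog, and in NTS from -0.50 for Runx1 to 0.43 for Myog. None of the 9 reached an unadjusted p under 0.05 in limma in either group, where 2.28% and 3.49% of all probes did. The unequal-variance test of all 5 groups gives 1 p per gene, so it cannot test SFA or NTS apart from the long fibers. Cdh15 passed that test, with an adjusted p of 0.0231, and its changes in SFA and NTS, -0.45 and -0.43, were under 2-fold. The intervals were wide, from -1.04 to 0.14 for Cdh15 in SFA and from -1.24 to 0.24 for Runx1 in NTS.

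Between long and short fibers of one material, Runx1 and Ncam1 passed the test for nanotubes, calls that were lost with slide as a block. Of the 9 genes, 2 had an unadjusted p under 0.05 between NTL and NTS, against 25.1% of all probes. Of the 9 genes, 5 had an unadjusted p under 0.05 between LFA and SFA, against 12.5% of all probes: Myf6, Cdh15, Chrna1, Ncam1, and Runx1, and 0 were called. The Ncam1 rise over SFA was 1.30 ± 0.49 with an adjusted p of 0.281. Asbestos and nanotubes were set against each other by the difference of their length effects and by LFA against NTL. No member was called in either, and in each 0 of all 36917 probes were called. At an unadjusted p under 0.05 in limma, 0 of the 9 genes passed in either, against 1.55% of probes for LFA against NTL and 3.45% for the difference of length effects. All 9 genes were lower in LFA than in NTL, with a median of -0.32 against -0.02 over all probes. The difference of length effects was below 0 for all 9, with a median of -0.57 against 0.01. The genes share the same arrays, and their common sign was not tested. LFA minus NTL was -0.29 for Cdh15 (95% interval -0.88 to 0.29), -0.49 for Ncam1 (-1.52 to 0.54), and -0.33 for Runx1 (-1.07 to 0.41), so the intervals of Ncam1 and Runx1 held a 2-fold difference between the long fibers.

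Of 19 genes of satellite cells and myogenic commitment, 1 was called higher in LFA and in NTL against control and 0 lower. It was Vcam1, an adhesion molecule that myoblasts share with activated endothelium, at 1.42 ± 0.31 and 1.76 ± 0.31. Between LFA and SFA 1 gene of the list was called lower, and between NTL and NTS 1 was called higher. Over the 19 genes the median change was -0.48 for LFA and -0.52 for NTL, with 5 and 4 genes above 0. Of 15 genes of myoblast fusion and immature fibers, 0 were called higher. Actc1, the cardiac actin that immature fibers also make, was called lower in LFA at -1.95 ± 0.54, and Igfbp5, a binding protein of insulin-like growth factors, in NTL at -1.10 ± 0.28. The median of that list was -0.64 in LFA and -0.18 in NTL.

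Of 17 neuromuscular junction genes, Dok7, the adaptor of the receptor kinase MuSK, was called lower in LFA at -1.23 ± 0.31 and in NTL at -1.14 ± 0.31. Nrg1, neuregulin, was called higher in NTL at 2.02 ± 0.58, with groups that overlapped. The other members of the list were not called against control, and its median was -0.81 in LFA and -0.15 in NTL. Between NTL and NTS 1 gene of the list was called lower. Of 13 further denervation response genes tested, a list that holds none of the 10 members, 0 were called higher in LFA or NTL against control. Of all 36917 probes, 821 and 1340 were called higher there. In LFA 1 and in NTL 2 genes of the list were called lower, where 634 and 1174 of all probes were. Against NTS, 1 was called higher in NTL, the cell cycle inhibitor Cdkn1a at 1.16 ± 0.32. Trim63, a ubiquitin ligase of muscle atrophy, was called lower in both, at -1.33 ± 0.35 and -1.81 ± 0.35, and Nes, the intermediate filament nestin, in NTL at -1.17 ± 0.33. The list had medians of -0.51 and -0.60. In SFA and NTS, 0 genes of the 4 lists were called.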

How the data were processed

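RNA of 20 diaphragms was hybridised with Cy3 to 1-color Agilent mouse arrays. The authors scanned them with Feature Extraction 10.7.3.1, and the deposited intensity is that software's processed signal, with background already subtracted. The authors' table holds deposited log2 values, normalized in GeneSpring and averaged per group, so it gave values and no test. Here, spots called outliers (92 to 204 per array) and control spots were left out, spots of a probe were averaged, and log2 intensity was taken relative to the array's 75th percentile. Probes well above background on at least 4 of 20 arrays were kept, 36917 of 55681. limma 3.58.1 in R 4.3.3 fitted 5 group means over all 20 arrays, with 15 residual degrees of freedom and Benjamini-Hochberg adjustment over all probes. A call needed an adjusted p under 0.05 and a change of at least 1 on the log2 scale. The brightest probe stood for a gene. An unequal-variance comparison of all 5 groups, the test the methods name, was an alternative with the adjustment over all probes and, chosen after the data were seen, over the probes that changed 2-fold, the order the methods give, as were other scalings, blocks, covariates, and left-out arrays. The named genes were the 10 members, the 3 genes most alike to each, and called genes of the lists. On simulated data with 4 arrays per group the fit was checked against known changes. The members and the lists were chosen with earlier results of these data known. No source says which mice shared a cage or an extraction, so these could not be modeled. The limma p-values rest on a spread within groups, pooled over all 5 groups of 4 mice and moderated over all probes. That spread holds differences of slide and RNA quality as well as of mice. The number of arrays limits the precision.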

Additional observations from a re-analysis of the deposited data

Results flagged for a closer look

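In 7 of 65 sets of 4 arrays, each a member's probe in a group, 1 array stood apart from the other 3, which is 10.8%. For independent sets of normal values the rate is about 1 in 20. These sets share arrays and their probes correlate, so the count cannot be judged against that rate. Pax7 was at -1.55 on SFA replicate 4, with the others at -2.68 to -2.64. The brighter Chrna1 probe was at 2.97 on control replicate 2, with the others at 1.99 to 2.06. Chrng was at -6.08 on NTS replicate 4, with the others at -3.74 to -3.25. The first Ncam1 probe was at -0.23 on NTL replicate 3, with the others at 1.89 to 2.20. The third Ncam1 probe was at -4.60 on control replicate 2, with the others at -2.24 to -1.87. The second was at -7.10 on NTS replicate 4, with the others at -1.99 to -0.99, and at -7.13 on NTL replicate 2, with the others at -1.54 to -0.58. Of these 7 values, 5 came from the array with the lowest 5′ to 3′ index of its group, and the part of that in the values was not tested.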

How the results depend on the processing

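The calls rest on few arrays and small margins. Of 1 member called in LFA against control, 0 remained with array medians for scaling, with slide as a block, with only the groups compared, and with the myofiber or leukocyte mean as a covariate, which took all calls from 1455 to 8 and 12. All calls in LFA were 930 with array medians, 902 with slide as a block, and 588 with only the groups compared. Without the array of lowest 5′ to 3′ index in each group 2 members were called, Cdh15 and Runx1. That alternative and the leukocyte covariate were chosen after the data were seen. Of 2 called in NTL against control, 1 (Runx1) was called with probes averaged by gene, with only the groups compared, with array brightness as a covariate, and without the arrays of lowest index, and 0 with slide or scan day as a block, with either marker covariate, and with the methods' test adjusted over all probes. All calls in NTL were 1328 with slide as a block, 1185 with scan day, 6 with either marker covariate, and 1049 with the methods' test. Adjusted over the probes that changed 2-fold, also chosen after the data were seen, that test called 2 in LFA (Cdh15 and Runx1) and 1 in NTL (Runx1). Of 2 called in NTL against NTS, 1 (Runx1) was called with averaged probes, only the groups compared, or scan day as a block, and 0 with slide as a block or with either marker covariate, and 3, Myod1 added, without NTS replicate 4 or without the arrays of lowest index. All calls between NTL and NTS were 756 with slide as a block, and 801 and 4 with the myofiber and leukocyte mean as a covariate. Between LFA and SFA, array medians gave 1 member (Runx1) in place of 0. Leaving out 1 replicate gave 0 to 2 members in LFA and in NTL against control, and 0 to 1 between LFA and SFA. The cause of these moves was not tested.

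Replicate numbers did not pair the arrays: deviations of same-numbered arrays correlated at -0.676 to 0.689, mean -0.033, and 4 of 20 arrays correlated best with their own number. With the replicate block 1, 2, and 2 members were called in LFA against control, NTL against control, and NTL against NTS, the same genes.

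Signs turned as follows. For Myog in LFA (-0.02) the change was 0.094 with quantile normalization, 0.31 with array medians, 0.20 with the index, 0.16 with the liver mean, and 0.61 with the myofiber mean as a covariate, and 0.026 in the authors' table. For Chrng in NTL (-0.01) it was, in that order, 0.14, 0.16, 0.29, 0.12, 0.99, and 0.014. For the third Ncam1 probe in NTL (0.39) it was -0.026 with normexp, -0.051 with slide as a block, -0.57 with brightness, and -2.60 with the leukocyte mean. The index covariate gave 0.38 and 0.58 for the third and second Ncam1 probes in LFA and 0.59 for the second in NTL. Averaged probes gave -0.11 for Ncam1 in LFA and -0.41 in SFA. The second Chrna1 probe in NTL was 0.15 with brightness. Slide as a block gave 0.0079 for the Cdh15 difference of length effects, and the liver mean gave 0.039 for Ncam1 in NTS. The myofiber mean gave, in LFA and NTL, 0.32 and 0.92 for Pax7, 0.85 and 1.43 for Myod1, 0.11 and 0.41 for Myf6, and 1.04 and 2.68 for the second Ncam1 probe. It gave 0.70 for the third Ncam1 probe in LFA, 0.31 for Cdh15 in NTL and 0.54 in NTL against NTS, 0.46 and 0.43 for the Chrna1 probes in NTL, and -0.049 for Ncam1 in SFA. The leukocyte mean gave -0.088, -0.021, and -0.32 for the second Runx1 probe in LFA, NTL, and NTL against NTS, and -0.58 for Myog in NTL. Without the arrays of lowest index, Myog in NTL was -0.055 and the second Ncam1 probe 0.11. Leaving out 1 replicate gave -0.47 to 0.0059 for the Cdh15 difference of length effects, -0.52 to 0.32 for Chrng in NTL, -0.47 to 0.25 for Myog in LFA, -0.020 to 0.70 for Myog in NTL, -0.039 to 0.30 for Ncam1 in SFA, -1.42 to 1.25 for the second Ncam1 probe in NTL, and -1.12 to 0.20 and -0.25 to 0.77 for the third in LFA and NTL.

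Scaling moved the split of all called probes. In LFA 821 were higher and 634 lower, against 982 and 312 with quantile normalization and 861 and 69 with array medians. In NTL the splits were 1340 and 1174, 1557 and 598, and 1175 and 259.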
